A study of Mus musculus with 4 samples.

Results

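The genes described here encode the rings that hold the small nuclear RNAs and the proteins that build the spliceosome around them. Members were all rows of the read-count files whose symbol starts with Lsm or Snrp and a further number or letter, with Prpf, with Sf3a or Sf3b and a number, or with U2af, leaving out Snrpn and symbols of pseudogenes. That gave 48 of 23366 gene symbols: 7 of the Lsm ring, 7 of the Sm ring, 4 other Snrp symbols, 24 larger spliceosome proteins (13 Prpf, 3 Sf3a, 5 Sf3b and 3 U2af symbols) and 6 other Lsm symbols. The rule used names, not measured values, but it was set with earlier results of these data known. All 48 passed the filter on low counts.

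The libraries hold polyadenylated RNA of R1, a line of mouse embryonic stem cells (strain 129X1 x 129S1) kept on gelatin in medium with serum and the self-renewal cytokine LIF. Cells of all 4 libraries received the vector pSicoR-Ef1a-mCh-Puro by lipid transfection, with a non-targeting hairpin in the 2 control libraries and a hairpin against Cyrano in the 2 knockdown libraries. Cyrano is a long noncoding RNA that pairs with the microRNA miR-7. Puromycin or flow cytometry enriched the transfected cells, so some cells without the hairpin may remain. The labels do not say which of these ways was used for which library.

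Sm and Lsm proteins are small proteins with a shared fold that join into rings of 7 subunits on RNA. The Sm ring sits on the U1, U2, U4 and U5 small nuclear RNAs. One Lsm ring, with Lsm8, holds U6 RNA in the nucleus, and another, with Lsm1 in its place, binds shortened messages in the cytoplasm and promotes the removal of their caps. The larger proteins recognize the branch point and the 3′ splice site (Sf3a, Sf3b, U2af) or join and remodel the particles (Prpf). In stem cells, as in other dividing cells, most are made at high levels.

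The counts over genes summed to between 16854403 and 22321102 per library. Cyrano, listed as 1700020I14Rik, had 407 and 286 reads in the controls and 89 and 68 after knockdown, which is 5.57-fold lower (log2 fold change -2.48 ± 0.30, SE; adjusted p = 0.0070 by edgeR), so the targeted RNA went the way of the labels. The stem cell factor genes Pou5f1 (929.8 to 1051 CPM) and Sox2 (402 to 487 CPM) were high in every library. CPM are read counts scaled to a common library size, after factors for composition. Of 7 fibroblast markers, Col3a1 and Lum had no read, Col1a1, Col1a2 and Pdgfrb had 0.186 to 7.20 CPM, Thy1 had 20.4 to 48.0 CPM, and Vim, at 535 to 616 CPM, made up most of the list's sum (605.2 and 646.3 CPM in the controls, 587.6 and 572.5 CPM after knockdown). Other library measures moved with the groups. The ribosomal RNA precursor Rn45s took 17.47% and 15.91% of control counts, against 12.3% and 11.03% after knockdown. Of all tallied reads, in genes or not, those without a unique alignment made up 32.77% and 30.2% in the controls, against 28.74% and 26.14% after knockdown.

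Of the 48 genes, 1 rose and none fell at an adjusted p under 0.05, and that gene was Lsm5. Among all 13199 genes tested, 0.0833% were called, 0.0379% higher and 0.0455% lower. At an unadjusted p under 0.05, 4 members were higher (Lsm5, Lsm4, Lsmd1 and Lsm11) and 0 lower, beside 6.18% and 5.43% of all genes (11.6% in either direction). A log2 fold change above 0 was found for 34 members (49.8% of all genes) and one below 0 for 14 (50.2%). Over 15 alternative fits the count above 0 ran from 25, without knockdown library 1, to 37, with library size only. It was 28 with an offset for annotated transcript length and GC content. Both knockdown libraries lay above both controls for 14 members (22.3% of all genes) and below both for 6 (21.3%). The median log2 fold change was 0.19 for the Lsm ring, 0.24 for the Sm ring, 0.12 for the other Snrp symbols, 0.12 for the other Lsm symbols and 0.02 for the larger proteins, against -0.0016 over all genes. In bulk RNA, a change in the mix of cells and a change in RNA per cell cannot be told apart.

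**Figure D1:**
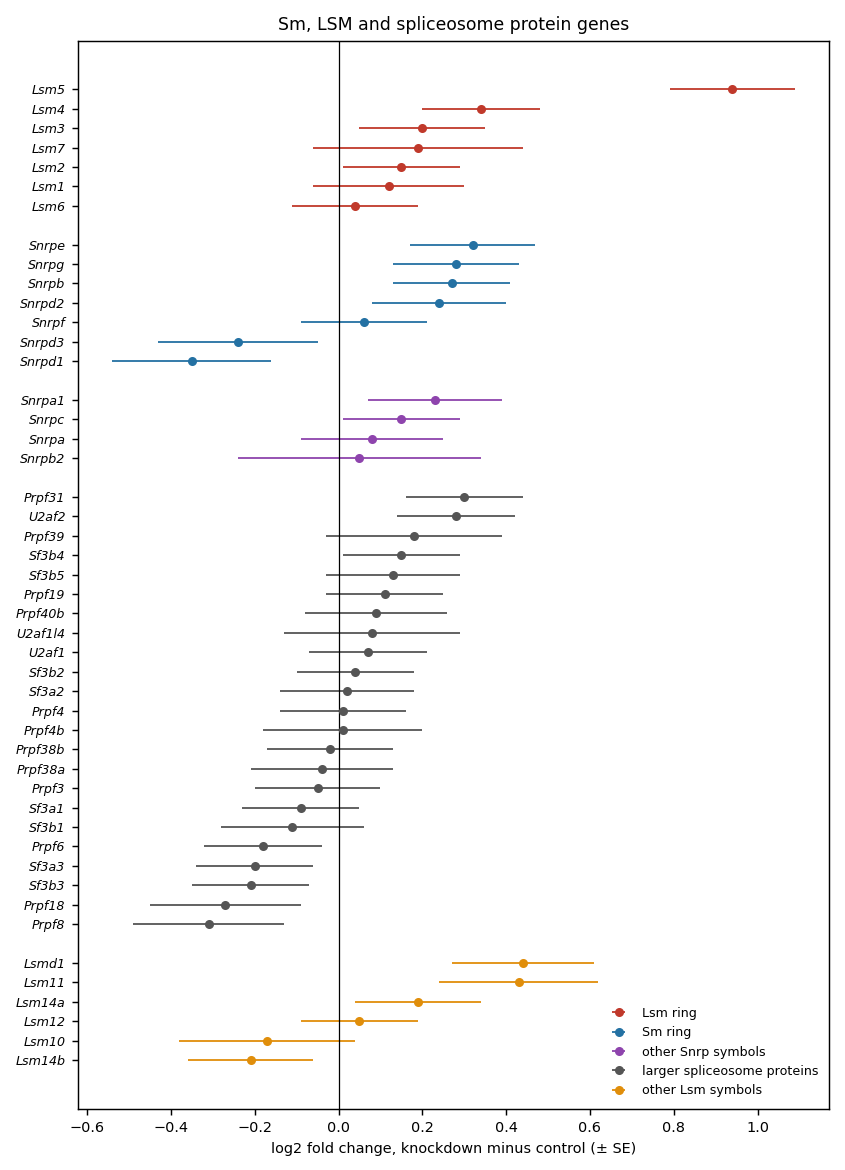
Log2 fold change of 47 of the 48 genes, knockdown minus control, with bars of 1 SE from edgeR, in 5 groups by role. Lsm5, at 0.94, lies apart from the other genes drawn, which run from -0.35 for Snrpd1 to 0.44 for Lsmd1.

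Lsm5, a subunit of both Lsm rings, stood at 49.6 and 53.4 CPM in the controls, against 93.3 and 105 CPM after knockdown. Both knockdown libraries were high, both controls were low and close to each other, and the groups did not overlap. The raw counts were 816 and 1009 for the controls, against 2083 and 2261 after knockdown. The mean went from 51.5 ± 2.68 to 99.2 ± 8.29 CPM (SD, n = 2 each), which is 1.92-fold. On the log2 scale that is a difference of 0.94 ± 0.15 (SE; edgeR adjusted p = 0.047). DESeq2 gave the same log2 fold change with an adjusted p of 1.3e-04. The call ended without control library 1 (0.89, adjusted p = 0.17), without control library 2 (1.00, 0.15), with RLE factors (0.94, 0.052), without robust estimation (0.94, 0.076) and by limma-voom (0.94, 0.071), so it lies near the threshold although its direction was the same in all 15 alternatives.

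Lsm5 also has the shortest annotated transcript of the 48, with a median of 416 bases, and a GC content of 38.3%. With an offset for annotated length and GC, its log2 fold change was 0.64 ± 0.18 (edgeR adjusted p = 0.20), which was not called. Of the distinct words of 50 bases in its coding transcripts, 35.0% also occur in transcripts of another annotated gene, mostly the processed pseudogene Gm7846, which is not among the counted symbols. Reads within such stretches can lack a unique alignment and then enter no gene count. The share of such reads was lower in both knockdown libraries, and its part in the count of Lsm5 was not tested.

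The other 6 genes of the Lsm ring had log2 fold changes between 0.04 and 0.34. Lsm4, the next in size, had 146 and 152 CPM in the controls and 186 and 191 CPM after knockdown. The groups did not overlap here either, and the spread within each was small. Its log2 fold change was 0.34 ± 0.14 (SE; unadjusted p = 0.027, edgeR adjusted p = 0.36), so Lsm4 was not called. No 50-base word of Lsm4 was shared with another annotated gene.

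Lsm2 and Lsm3, subunits of both rings like Lsm4 to Lsm7, also had the knockdown libraries above the controls, with no overlap, as had 22.3% of all genes. Lsm2 had 98.7 and 108 CPM in the controls and 116 and 113 CPM after knockdown, and Lsm3 had 80.4 and 69.6 against 87.9 and 84.1 CPM. Neither had an unadjusted p under 0.05 by edgeR (0.31 and 0.21). Their log2 fold changes, 0.15 and 0.20, were 0.05 and 0.03 with the length and GC offset. Lsm6, with the smallest difference, had 69.4 and 63.3 CPM in the controls and 72.7 and 63.8 CPM after knockdown (log2 fold change 0.04 ± 0.15, edgeR adjusted p = 0.95). Lsm7 was the least repeatable of the ring, at 23.7 and 41.3 CPM in the controls and 42.6 and 31.8 CPM after knockdown, so the groups overlapped. Its log2 fold change of 0.19 was -0.15 without control library 1 and 0.65 without control library 2.

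The subunits that tell the cytoplasmic from the nuclear ring did not separate the groups. Lsm1, of the cytoplasmic ring, had 39.1 and 48.4 CPM in the controls and 43.3 and 51.7 CPM after knockdown (log2 fold change 0.12 ± 0.18, edgeR adjusted p = 0.84). The nuclear subunit Lsm8 appears in the files under its older symbol Naa38, outside the rule, since the gene now called Naa38 is listed there as Lsmd1. It had 60.5 and 56.2 CPM in the controls and 58.2 and 62.8 CPM after knockdown (0.05 ± 0.16, edgeR adjusted p = 0.94). The groups overlapped in both genes.

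Summed over its 7 genes, the Lsm ring had 506.5 and 535.8 CPM in the controls and 642.1 and 641.4 CPM after knockdown. Without Lsm5 the sums were 456.9 and 482.4 CPM against 548.8 and 536.4 CPM, so the knockdown libraries lay above the controls with and without that gene. The median log2 fold change of the 6 genes without Lsm5 was 0.17. That of all 7 was 0.11 without control library 1, 0.28 without control library 2 and 0.05 with the length and GC offset.

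**Figure D2:**
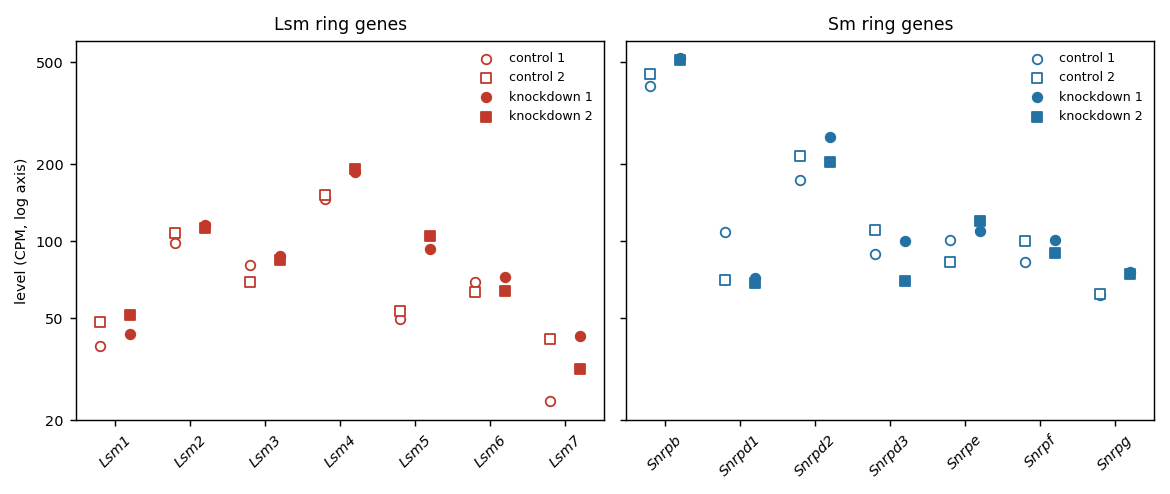
Level of each Lsm ring gene (left) and Sm ring gene (right) in CPM on a log axis. Open symbols are the 2 control libraries and filled symbols the 2 knockdown libraries. The libraries part most clearly at Lsm5, and the order of the genes by CPM is not an order per length.

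Per kilobase of annotated transcript, the subunits of the Lsm ring did not stand at equal levels. In the controls Lsm4 had 234 ± 6.83 CPM per kilobase (SD, n = 2), followed by Lsm5 at 124 ± 6.45, Lsm2 at 119 ± 7.61 and Lsm3 at 110.2 ± 11.2, and these last 3 did not differ beyond their spread. Lsm7 (40.7 ± 15.6), Lsm6 (31.5 ± 2.04) and Lsm1 (29.1 ± 4.35) came lower and did not differ from each other beyond their spread. After knockdown Lsm5 had 238 CPM per kilobase, beside 297 for Lsm4 and 132 for Lsm2. These levels depend on the annotated length, since a longer unused isoform lowers them.

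The Sm ring was not called at any gene. Of its 7 genes, 5 had a log2 fold change above 0 (49.8% of all genes) and 2 below (50.2%). EdgeR, DESeq2 and limma-voom called 0, and 0 had an unadjusted p under 0.05 by edgeR. For Snrpe, Snrpg and Snrpb both knockdown libraries exceeded both controls (22.3% of all genes). For no Sm gene did both lie below (21.3% of all genes).

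Snrpe, which encodes SmE, had 101 and 82.7 CPM in the controls and 110.1 and 119.7 CPM after knockdown (log2 fold change 0.32 ± 0.15, edgeR adjusted p = 0.44). Snrpg, which encodes SmG, was the most repeatable of the ring, at 61.5 and 62.4 CPM in the controls and 76.1 and 74.7 CPM after knockdown (0.28 ± 0.15, edgeR adjusted p = 0.49). Snrpb, which encodes SmB, had 405 and 451 CPM against 521 and 509 CPM (0.27 ± 0.14, edgeR adjusted p = 0.49). In these 3 genes the 4 libraries split by group, but the size of the difference was about 2 SE.

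SmD1 and SmD3 genes lay on the other side of 0. Snrpd1 had 109 and 70.3 CPM in the controls and 72.0 and 68.4 CPM after knockdown, so its lower mean after knockdown rested on control library 1 (log2 fold change -0.35 ± 0.19, edgeR adjusted p = 0.51, and -0.0025 without that library). Snrpd3 had 89.5 and 111 CPM in the controls and 99.8 and 70.0 CPM after knockdown, with knockdown library 2 alone below both controls. Snrpd2, whose protein pairs with SmD1, had 174 and 215 against 255 and 205 CPM, and Snrpf, whose protein joins SmE and SmG before the ring closes, 83.0 and 100.3 against 101 and 90.3 CPM. The groups overlapped in all 4 genes. Exons of Ccdc38 on the opposite strand cover 65.9% of the Snrpf exon bases, and the labels do not say whether the counting kept strands apart.

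The sums over the Sm ring were 1023 and 1093 CPM in the controls and 1235 and 1137 CPM after knockdown. The lowest knockdown sum exceeded the highest control sum by less than the difference between the controls. The median log2 fold change of 0.24 fell to 0.09 without control library 1, to 0.06 without knockdown library 1 and to 0.11 with the length and GC offset. Per kilobase of transcript, Snrpb stood highest in the controls at 349 and 388 CPM, and Snrpg (58.7 ± 0.592) and Snrpd3 (57.7 ± 8.83) were lowest and within their spread of each other (mean ± SD, n = 2 each).

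The other Snrp symbols encode proteins of single particles: Snrpa and Snrpc the A and C proteins of the U1 particle, and Snrpa1 and Snrpb2 a pair of U2 proteins. All 4 had a log2 fold change above 0 (49.8% of all genes), between 0.05 and 0.23. None had an unadjusted p under 0.05 by edgeR or was called by edgeR, DESeq2 or limma-voom. Snrpa1 had 104 and 83.5 CPM in the controls and 119 and 100.3 CPM after knockdown (0.23 ± 0.16, edgeR adjusted p = 0.61), and its log2 fold change was 0.39 without control library 1, 0.08 without control library 2, 0.09 without knockdown library 1 and 0.35 without knockdown library 2. The median of the 4 genes, 0.12, was 0.19 without control library 1, 0.02 without knockdown library 1 and 0.26 without knockdown library 2, and 0.06 with the length and GC offset. Snrpc had 139 and 149.7 against 150.2 and 172 CPM (0.15 ± 0.14, edgeR adjusted p = 0.72), the only 1 of the 4 whose groups did not overlap, and there by a narrow gap. Snrpb2 had the fewest reads of all members, with 10.3 and 7.73 against 11.1 and 7.57 CPM (0.05 ± 0.29, edgeR adjusted p = 0.97).

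The larger spliceosome proteins were spread evenly around 0. Of 24 genes, 14 had a log2 fold change above 0 (49.8% of all genes) and 10 below (50.2%). In 4 both knockdown libraries exceeded both controls (22.3% of all genes) and in 5 both lay below (21.3%), so such splits were about as common here as among all genes. None had an unadjusted p under 0.05 by edgeR, and edgeR, DESeq2 and limma-voom called 0. Their sums were 4581 and 4352 CPM in the controls and 4504 and 4396 CPM after knockdown, which overlap.

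Among the Prpf genes, Prpf31, which encodes a U4/U6 particle protein needed for the tri-snRNP, lay highest. It had 130.4 and 144 CPM in the controls and 175 and 162 CPM after knockdown (log2 fold change 0.30 ± 0.14, edgeR adjusted p = 0.44). Prpf8, the large protein at the catalytic centre, lay lowest, at 1004 and 706 CPM in the controls and 757 and 623 CPM after knockdown (-0.31 ± 0.18, edgeR adjusted p = 0.53). Control library 1 stood apart for Prpf8, the groups overlapped, and without that library the log2 fold change was -0.03. Prpf6, which bridges the particles of the tri-snRNP, was nearly equal within groups, at 121 CPM in both controls and 107 CPM in both others (-0.18 ± 0.14, edgeR adjusted p = 0.65). Prpf18, a factor of the second splicing step, also had both knockdown libraries lower (40.7 and 36.0 against 31.0 and 32.6 CPM), and Prpf19, a ubiquitin ligase of the activated spliceosome, both higher (385 and 406 against 415 and 438 CPM). For the other 8 Prpf genes the groups overlapped.

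The Sf3a and Sf3b genes encode the parts of the U2 particle that clamp the branch point. Sf3a1 had 276 and 275 CPM in the controls and 257 and 259 CPM after knockdown, and Sf3a3 had 135 and 139 against 119 and 119.9 CPM, both without overlap. Sf3b3 had 361 and 352 CPM in the controls and 283 and 333 CPM after knockdown, also lower. Sf3b4 was higher, at 246 and 266 against 297 and 273 CPM. The log2 fold changes of these 4 genes ran from -0.21 to 0.15, and their edgeR adjusted p values from 0.60 to 0.83. Sf3b1, the largest subunit of Sf3b, had 123 and 97.3 against 88.7 and 116 CPM, with the groups overlapping, as they did for Sf3a2, Sf3b2 and Sf3b5. The small subunit now called Sf3b6 is listed under its older symbol 0610009D07Rik, outside the rule, with 26.3 and 24.5 CPM in the controls and 19.8 and 21.6 CPM after knockdown (log2 fold change -0.30 ± 0.20, edgeR adjusted p = 0.58).

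U2af2, which binds the polypyrimidine tract before the 3′ splice site, had 558 and 610.4 CPM in the controls and 685 and 738 CPM after knockdown. The groups did not overlap, with a log2 fold change of 0.28 ± 0.14 (unadjusted p = 0.067, edgeR adjusted p = 0.46). Its partner U2af1, which reads the AG at the splice site, had 161 and 153 against 172 and 157 CPM, and the related U2af1l4 had 19.3 and 20.2 against 23.0 and 19.0 CPM. Both overlapped between groups. Shared 50-base words made up 51.3% of those of U2af1, 60.3% of U2af1l4 and 27.1% of U2af2. U2af1l4 shared most with Gm49396, whose exons overlap 94.3% of its exon bases on the same strand. Its share therefore includes words at the same place in the genome, which need not lack a unique alignment.

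Of the other Lsm symbols, Lsmd1 and Lsm11 had an unadjusted p under 0.05. Lsmd1, now named Naa38 for its place in an N-terminal acetyltransferase, had 43.7 and 59.1 CPM in the controls and 69.5 and 69.9 CPM after knockdown (log2 fold change 0.44 ± 0.17, edgeR adjusted p = 0.36). The controls differed, and the value was 0.24 without control library 1 and 0.67 without control library 2. Lsm11, which with Lsm10 replaces SmD1 and SmD2 in the U7 particle that cuts histone messages, had 22.4 and 20.2 CPM in the controls and 29.7 and 27.5 CPM after knockdown (0.43 ± 0.19, edgeR adjusted p = 0.42). Its partner Lsm10 had 19.3 and 20.5 against 16.0 and 19.4 CPM (-0.17 ± 0.21), with overlapping groups. The log2 fold changes of these U7 subunits had opposite signs, and the difference between them was not tested. Lsm14b, a protein of cytoplasmic RNA granules, lay lowest, at 80.8 and 81.7 against 64.7 and 75.4 CPM (-0.21 ± 0.15, edgeR adjusted p = 0.62), while its relative Lsm14a had 162 and 196 against 194 and 214 CPM (0.19 ± 0.15).

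The groups compared by role also differ in transcript length. The median annotated transcript was 798.5 bases in the Lsm ring, 1055 in the Sm ring and 3127 among the larger proteins. All tested genes were cut into 5 groups of near-equal size by length. Their median log2 fold changes ran from 0.13 in the shortest group (up to 1530.0 bases) to -0.14 in the longest (from 4376 bases). In the shortest group the 6 Lsm ring genes had a median of 0.20, the 6 Sm ring genes 0.25 and the 4 larger proteins 0.04. Across the 48 members, log2 fold change and length had a Spearman correlation of -0.36, and across 13114 tested genes one of -0.24. Genes measured in the same 4 libraries are not independent, so these are descriptions.

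**Figure D3:**
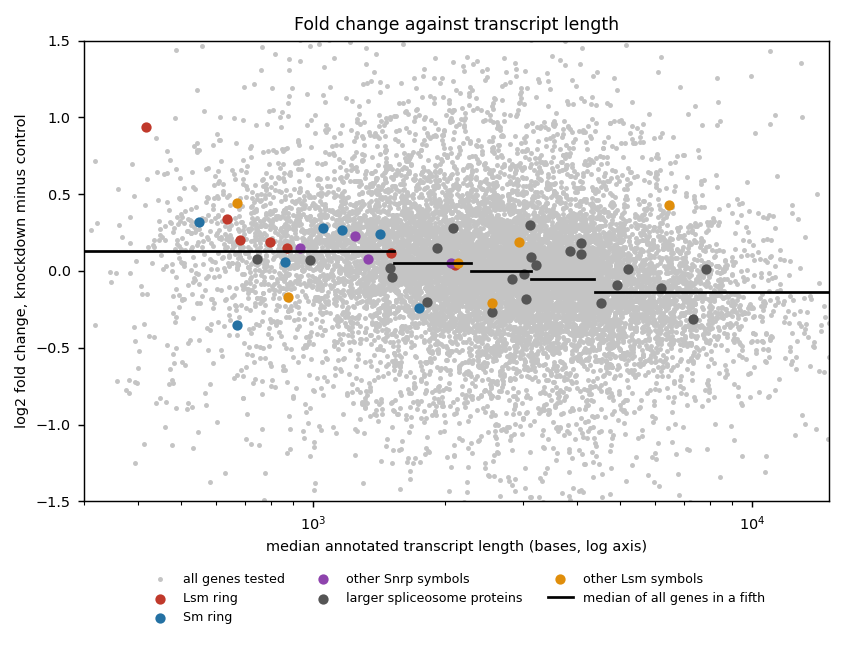
Log2 fold change, knockdown minus control, against the median annotated transcript length in bases on a log axis, for all tested genes (grey; points beyond the axes are not drawn) and 47 of the 48 members (coloured by role). Black lines give the median of all genes in each of 5 groups by length, which goes from 0.13 to -0.14.

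With the length and GC offset, the medians were 0.05 for the Lsm ring, 0.11 for the Sm ring and -0.0023 for the larger proteins, beside 0.01 over all genes, and edgeR called none of the 48 at an adjusted p under 0.05 (7 had an unadjusted p under 0.05). The ring medians stayed above that of the larger proteins in each of the 15 alternatives, all of which reuse the same libraries. The gap was narrow for the Sm ring without control library 1 (0.09 against 0.05) and without knockdown library 1 (0.06 against -0.0035). Between replicates the median log2 CPM had an SD of 0.07 in the Lsm ring, 0.08 in the Sm ring and 0.05 among the larger proteins. The gaps with the offset and those 2 gaps are no clearer than that spread. Whether length accounts for the difference between the rings and the larger proteins was not tested beyond this offset.

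**Figure D4:**
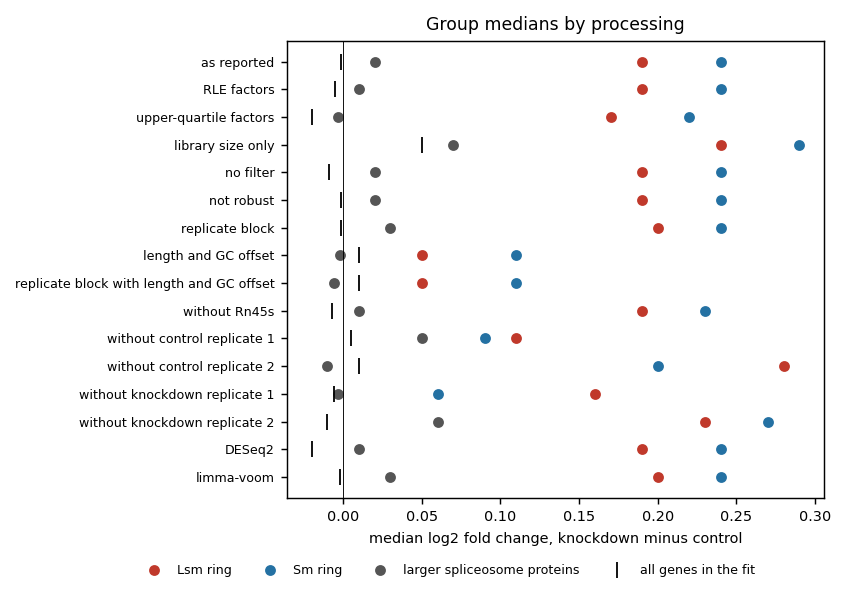
Median log2 fold change of the Lsm ring, the Sm ring and the larger spliceosome proteins, with that of all genes in the fit, as reported and under each of 15 alternatives. With the length and GC offset the ring medians are 0.05 and 0.11; with 1 library left out they run from 0.11 to 0.28 for the Lsm ring and from 0.06 to 0.27 for the Sm ring.

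Genes that act with the rings were examined in 7 lists, and edgeR called no gene of them at an adjusted p under 0.05 with the settings reported here, while some alternatives did. The decay list held 10 genes whose products work with the cytoplasmic Lsm ring in removing caps and degrading messages. Of these, 9 had a log2 fold change below 0 (50.2% of all genes), and the median was -0.13. In 4 of the 10 both knockdown libraries lay below both controls (21.3% of all genes). Patl1, the scaffold that joins the ring to the decapping enzyme, had 59.7 and 51.1 CPM in the controls and 41.9 and 38.8 CPM after knockdown (-0.46 ± 0.17, edgeR adjusted p = 0.32). Dcp2, the decapping enzyme itself, had 174 and 129.5 against 131 and 88.6 CPM (-0.47 ± 0.20, edgeR adjusted p = 0.40). The value for Dcp2 was -0.24 without control library 1, -0.21 without knockdown library 2 and -0.78 without knockdown library 1, where it was called (adjusted p = 0.037). Those 2 were the genes of the list with an unadjusted p under 0.05, and DESeq2 and limma-voom called 0. With the length and GC offset 7 of 10 were below 0 and the median was -0.03. With 1 library left out the median ran from -0.25, without control library 2, to -0.15, without control library 1, where 6 of 10 were below 0. The list's median transcript length was 4609.8 bases, and all tested genes in the longest length group had a median of -0.14.

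Of 19 measured genes that assemble the small nuclear particles, 15 lay above 0 (49.8% of all genes), with a median log2 fold change of 0.11. That median was 0.04 with the length and GC offset, 0.05 without control library 2 and 0.06 without knockdown library 1. Smn1, which loads Sm rings onto RNA, had 62.5 and 60.6 CPM in the controls and 78.3 and 82.0 CPM after knockdown (0.38 ± 0.15, edgeR adjusted p = 0.35), and was the member with an unadjusted p under 0.05. The 15 other tri-snRNP genes had a median of -0.02, the 21 other genes of the U1, U2 and U12 particles one of 0.03, and the 23 genes of the Prp19-associated complex and the catalytic steps one of -0.01. In the last list Bcas2, a core subunit of the Prp19-associated complex, had 318 and 339 CPM in the controls and 526 and 515 CPM after knockdown (0.66 ± 0.14). Its edgeR adjusted p was 0.093 and its DESeq2 adjusted p 0.0031, the latter past the threshold.

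The 20 SR protein and splicing kinase genes had a median of 0.10, with 15 above 0 (49.8% of all genes). With the length and GC offset their median was -0.0012. Tra2b, a splicing activator, had 393 and 427 CPM in the controls and 537 CPM in each knockdown library (0.39 ± 0.14, edgeR adjusted p = 0.30). The 13 measured genes of the exon junction and export complexes had a median of 0.07. Among them Sap18, of the ASAP complex, had 24.9 and 15.3 CPM in the controls and 47.7 and 32.3 CPM after knockdown (1.00 ± 0.26, edgeR adjusted p = 0.18, DESeq2 adjusted p = 0.038), and Magoh, a core subunit of the junction complex, 36.3 and 25.7 against 23.8 and 14.8 CPM (-0.68 ± 0.26, edgeR adjusted p = 0.34). Without knockdown library 1, Magoh was called (-1.08, adjusted p = 0.035), and without knockdown library 2 Sap18 was (1.25, adjusted p = 0.0037), while without control library 1 Magoh was at -0.41. At an unadjusted p under 0.05 by edgeR there were 2 tri-snRNP genes, 1 of the U1, U2 and U12 list, 1 of the Prp19 list, 2 SR genes and 3 of the exon junction list, beside 11.6% of all genes.

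Cell type markers moved beside these values. Of 8 endoderm markers, 7 were tested. All 7 lay above 0 (49.8% of all genes), 6 of them without overlap between groups (22.3% of all genes). Their log2 fold changes ran from 0.09 for Dab2 to 1.10 for Pdgfra, with Sox7 at 0.27. At an adjusted p under 0.05 edgeR called none of the 7 (lowest adjusted p = 0.093). The summed level of the 7 was 99.83 and 119.3 CPM in the controls and 161.7 and 200.1 CPM after knockdown. Afp, which did not pass the filter, had no read in the controls and 8 and 1 reads after knockdown. Of 9 stem cell markers 5 were above 0 and 4 below, with Utf1 and Tdgf1 barely above it (0.0030 and 0.0029). Dppa5a was higher (0.40 ± 0.16, edgeR adjusted p = 0.35) and Esrrb lower (-0.35 ± 0.15, edgeR adjusted p = 0.37). Nanog had 216 and 228 CPM in the controls and 129 and 133 CPM after knockdown (-0.76 ± 0.14, edgeR adjusted p = 0.070). DESeq2 called Nanog (adjusted p = 0.00056) and 2 of the endoderm markers, among them Pdgfra (18.2 and 20.4 against 32.0 and 50.9 CPM; adjusted p = 0.0042). Their part in the level of Lsm5 or of the rings was not tested.

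Because the hairpin targets an RNA known for binding miR-7, the 3′ UTRs of the members were searched for matches to all or most of its seed. The microRNA sequences, from RefSeq (GRCm38.p6), are shown with the seed, bases 2 to 8, in capitals, and both share it. Below them stand the sites of the ring genes and of the 2 larger-protein genes with a site and both knockdown libraries above both controls, from GENCODE M21 transcripts, with the match in capitals.
mmu-miR-7a-5p: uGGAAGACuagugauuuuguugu
mmu-miR-7b-5p: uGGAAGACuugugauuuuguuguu
Lsm4: aagggctgactTCTTCCAggcatgtttga
Snrpd3: ccccagcacctGTCTTCCtgattgtaatt
Prpf31: cgggcagaaagGTCTTCCtcacactcagc
U2af2: tcttctccttaGTCTTCCtgactcaaccc

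A match was the letters GTCTTCC or TCTTCCA in the transcript's own strand of the longest annotated 3′ UTR. A site holding both was counted once. GTCTTCC pairs with all of bases 2 to 8. TCTTCCA, the form in Lsm4 and Lsm12, leaves base 8 unpaired there and has an A opposite the first base. It was present in 8 of 47 members searched (17.0%) and in 26.2% of 12577 tested genes, whose 3′ UTRs are longer (a median of 1183 bases against 545.0). Besides the 4 genes printed, Lsm11, Lsm12, Prpf18 and Sf3b5 held a site, and Lsm12 held 2. Their log2 fold changes were 0.43, 0.05, -0.27 and 0.13, and for Prpf18 both knockdown libraries lay below both controls. Of the 8 genes, 6 lay above 0, beside 1486 of 3296 tested genes with a site. The log2 fold changes of the 8 had a median of 0.21, and those of members without a site 0.07. Whether a site goes with the direction of change was not tested. Over all tested genes the medians were -0.04 with a site and 0.01 without. Lsm5 held no match, which says only that these letters are not in that 3′ UTR.

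The promoters of 37 members were found in the RefSeq table (250 bases before to 50 after a gene's start, GRCm38.p6). The ETS family core CCGGAAG, searched on both strands, was present in 14 of the 37 (37.8%), beside 19.7% of 10286 tested genes with an entry. It was found in 1 of 5 Lsm ring genes, 2 of 5 Sm ring genes, 2 of 4 other Snrp genes and 9 of 19 larger-protein genes, so it was not a mark of the rings. The letters CCAAT were present in 45.9% of members and 43.2% of tested genes, CACGTG in 10.8% and 12.1%, and TATAAA in 5.41% and 8.34%. The YY1 motif was present in 3 of 37 members (8.11%: Lsm7, Prpf38b and Sf3a1) and 2.34% of tested genes. The ring genes with an ETS core before the start are shown with the core in capitals, on the gene's own strand, Lsm5 at chr6:56704891-56704919 (minus strand) and Snrpg at chr6:86371384-86371412 (plus strand).
Lsm5: cgtatgctggtCTTCCGGcggcaaattat
Snrpg: tggcgacgcaaCCGGAAGcgtggctctgg

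In Lsm5 the core lies 209 bases before the annotated start and in Snrpg 145 bases before it. These matches are descriptions of the reference sequence, not of binding in these cells.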

How the data were processed

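The authors deposited raw read counts per gene symbol for 2 control and 2 knockdown libraries. TopHat, HTSeq, SAMtools, bedtools and build mm9 appear in the submitters' processing notes; versions, annotation and strand setting are not given there. The 5 tallies that name no gene were left out. Groups came from sample titles. No source says how cultures were separated, so p-values reflect the spread of these libraries, which may be technical.

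Counts were tested with edgeR 4.0.16 (R 4.3.3): filterByExpr (minimum count 10), TMM factors, robust glmQLFit and glmQLFTest on group, Benjamini-Hochberg over 13199 genes, threshold 0.05. The SE is |log2 fold change| divided by the root of F. The fit was checked on simulated data. Alternatives were other factors, no filter, DESeq2 1.42.0, limma-voom (limma 3.58.1), no robust step, a replicate block, a length and GC offset (smooths per library, mgcv 1.9.3), no Rn45s, and each library left out. Replicates differed beyond sampling noise (chi-square per degree of freedom 25.36 in controls, 20.54 in knockdown). Snrpb2, the member with fewest reads, had 146 to 248 per library.

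Lengths, GC content and 3′ UTRs (at least 50 bases) came by symbol from GENCODE M21 (GRCm38, not the files' build), which matched 23005 of 23366 symbols (98.5%). A length is the median over coding transcripts.

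The members and lists were chosen with earlier results of these data known. Named were Lsm5, members with an unadjusted p under 0.05 and, per role group, the lowest p values and the highest and lowest fold change; other members were added after their values were seen. The values of 1 member enter the counts and medians but are not reported here.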

Additional observations from a re-analysis of the deposited data

Results flagged for a closer look

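Ambiguous reads, those tallied as lying on more than 1 gene and left out of the gene counts, had a mean share of 0.585% in the knockdown libraries and 0.485% in the controls, and both knockdown values exceeded both control values. In GENCODE M21, 13 of the 48 members have exons that overlap another gene, 10 of them a gene on the opposite strand.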

How the results depend on the processing

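Over 15 alternatives the direction of Lsm5 was the same in all and its call held in 9. Its log2 fold change was 0.94 with RLE factors, by limma-voom and without robust estimation, and it was 0.64 under the offset for length and GC, none of them called, and 0.86 to 1.02 with a library left out. Members called higher numbered 0 in those 4 settings, 2 with the replicate block (Lsm5 and Lsmd1), 3 with block and offset (Lsm11, Lsm5 and Prpf31) and 0 to 1 with a library left out; 1 was called lower with block and offset (Snrpd1). All genes called higher were 5, and 2 with RLE factors, 10 with upper-quartile factors, 32 with library size only, 174 without the filter, 1 without robust estimation, 504 with the block, 410 with block and offset, 71 by DESeq2, 1 by limma-voom and 0 to 60 with a library left out. Those called lower were 6, and 16 with upper-quartile factors, 18 with library size only, 158 without the filter, 3 without robust estimation, 451 with the block, 311 with block and offset, 62 by DESeq2, 2 by limma-voom and 0 to 131 with a library left out. Of the genes in the 7 lists of ring partners, 0 were called as reported, 9 with the block (Mfap1a, Ppih, Snrnp35, Bcas2, Dcp2, Srsf9, Tra2b, Sap18 and Magoh), 7 with block and offset, 2 without the filter and by DESeq2 (Bcas2 and Sap18 in both), 1 with library size only (Bcas2) and 0 to 2 with a library left out. Same-numbered libraries deviated together (correlation 0.2437), but 2 pairs do not show that the numbers pair them. The Lsm ring median was 0.05 with the offset, with or without the block, and 0.11 to 0.28 with a library left out; that of the Sm ring was 0.11 and 0.06 to 0.27; that of the larger proteins was 0.07 with library size only. The Cyrano log2 fold change was -2.42 by limma-voom (adjusted p = 0.051) and -2.79 to -2.08 with a library left out, losing its call without either control. Lsm6 was -0.03 with the offset, -0.04 with block and offset and -0.06 to 0.14 with a library left out; Snrpb2 was -0.13, -0.16 and -0.26 to 0.30. Of genes with an unadjusted p under 0.05, 53.2% were higher, 66.9% with library size only, 41.1% without knockdown library 1 and 61.9% without control library 1. Apart from the effect of fewer samples, the cause was not tested. With 2 libraries a group the SE rests on few degrees of freedom, and low counts limit Snrpb2 most.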
